A study of Homo sapiens with 24 samples.

Results

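HPDE cells, an immortalised line of human pancreatic duct epithelium labelled as clone c7, were compared after exposure to extracellular vesicles (EV) from PANC-1 cells and after exposure to the residual medium left over from vesicle isolation, which the labels call the negative control. PANC-1 is an established line grown from a pancreatic duct carcinoma. The comparison uses 6 of the 24 RNA-seq libraries of the series, 3 that received PANC-1 EV and 3 that received residual medium, and all genes whose mean expression over the 12 HPDE libraries was at least 1 FPKM (fragments scaled to gene length and library depth), which left 12223 of the 48162 listed genes. The other libraries are HPDE cells left untreated in fresh medium, HPDE cells given vesicles from another source named PPCL-68, and the same 4 treatments of a further pancreatic line, HPNE, with 3 libraries each. Vesicles were given at 1e10 per well for 24 h, and every group, controls included, was kept in keratinocyte serum-free medium with antibiotics. All HPDE libraries come from a single clone that was immortalised with viral oncogenes, and the series describes its replicates as biological triplicates without saying how the cultures or the vesicle preparations were kept apart.

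Extracellular vesicles are membrane particles that cells shed and that carry proteins, lipids and RNA to the cells that take them up. Cells meet disturbed protein folding, starvation for amino acids or oxidative damage with the integrated stress response: kinases phosphorylate the initiation factor eIF2alpha, bulk translation slows, and the transcription factors ATF4 and DDIT3 (CHOP) switch on genes for amino acid supply and, under lasting stress, for cell death. The unfolded protein response of the endoplasmic reticulum (ER) adds chaperones through XBP1 and ATF6, whereas the cytosolic heat shock response is run by HSF1, and duct epithelium also answers injury with NF-kB and interferon programmes and with ligands of the EGF receptor.

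The 6 libraries held between 32667329 and 38932792 reads assigned to genes, and differences between the 4 HPDE groups made up 88.0% of the variance over the tested genes. With PANC-1 EV, 7736 of 12223 genes differed from residual medium at an adjusted p under 0.05 (percent called 63.3%), 3449 of them higher (28.2%) and 4287 lower (35.1%). Most differences were small: 293 genes moved by 1 log2 unit or more (2.40%), 189 of them higher (1.55%) and 104 lower (0.851%). The groups did not overlap at 66.9% of tested genes. The median over all tested genes was -0.041. Differences are given throughout as log2(FPKM + 1) with PANC-1 EV minus residual medium, so they understate the change of genes of low expression, and a gene list is read against these shares. Against untreated cells, the same PANC-1 EV libraries differed at 7413 genes (60.6%). Residual medium itself differed from untreated cells at 2443 genes (20.0%), 1214 of them higher (9.93%) and 1229 lower (10.1%), with 56 past 1 log2, so the residual medium moved genes of its own. Untreated values are given for some of the genes that residual medium had moved. Among the genes named below, CANX, CD63, CLDN4, FOSL1, HSPD1, MT2A, OAS1, RAB27A and SEC61B passed the test against residual medium but not against untreated cells. PI3 and SPRR2A were lower than with residual medium and higher than in untreated cells, and SNAI2 was the reverse.

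**Figure D1:**
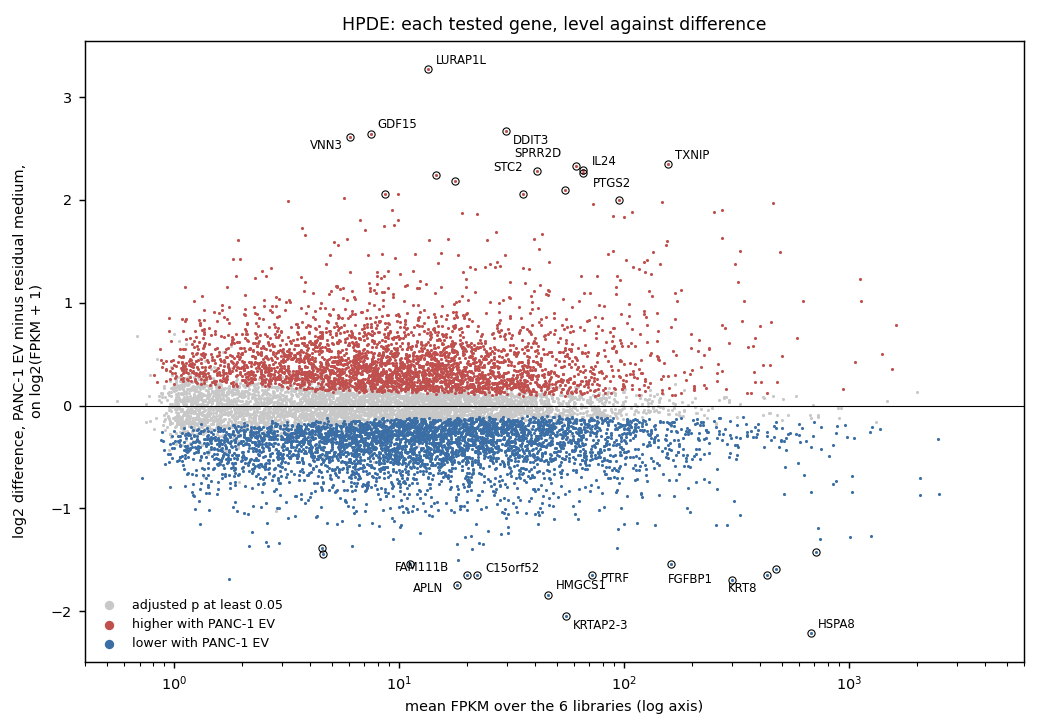
Each point is 1 of 12223 tested genes, with its mean FPKM over the 6 libraries on a log axis and the log2 difference between PANC-1 EV and residual medium on the other; circles mark the 15 largest rises and the 15 largest falls among protein coding genes of at least 5 FPKM with no overlap between the groups. LURAP1L lies highest at 3.27 and HSPA8 lowest of the circled genes at -2.22, and points past the adjusted p threshold lie on both sides of 0 at every level.

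Markers of the labelled duct epithelium were expressed in both groups, at different levels, and basal markers were not part of this check. The 10 duct epithelium markers summed to between 3165 and 3543 FPKM with residual medium and between 1571 and 1833 FPKM with PANC-1 EV, and 8 of the 9 that were tested fell, at a median of -0.76. Residual medium had raised 5 of the 9 over untreated cells, and against untreated cells 5 were lower and 2 higher with PANC-1 EV, at a median of -0.25. Markers of fibroblasts and stellate cells summed to at most 9.34 FPKM, those of leukocytes to at most 2.14 FPKM and those of endothelium to at most 0.929 FPKM in any of the 6 libraries. Acinar and endocrine markers stayed under 0.25 FPKM, and 6 of the 7 acinar markers were at 0 in every PANC-1 EV library. Only 1 leukocyte marker and 2 fibroblast markers reached the tested set. In bulk RNA, fewer cells of a kind and less RNA per cell cannot be told apart.

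The difference also moved with the listed length of a gene. Among protein coding genes, the median log2 difference was -0.147 in the shortest of 4 equal length classes and -0.0848, -0.0242 and 0.0849 in the following ones. In the shortest class 18.0% of genes were higher and 46.7% lower, and in the longest 42.1% were higher and 22.8% lower. The 3 untreated libraries showed the same tilt against residual medium, and against untreated cells the medians of the PANC-1 EV group spanned only -0.0743 to -0.0172. The part of length in the results on short genes was not tested beyond the values given beside them.

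**Figure D2:**
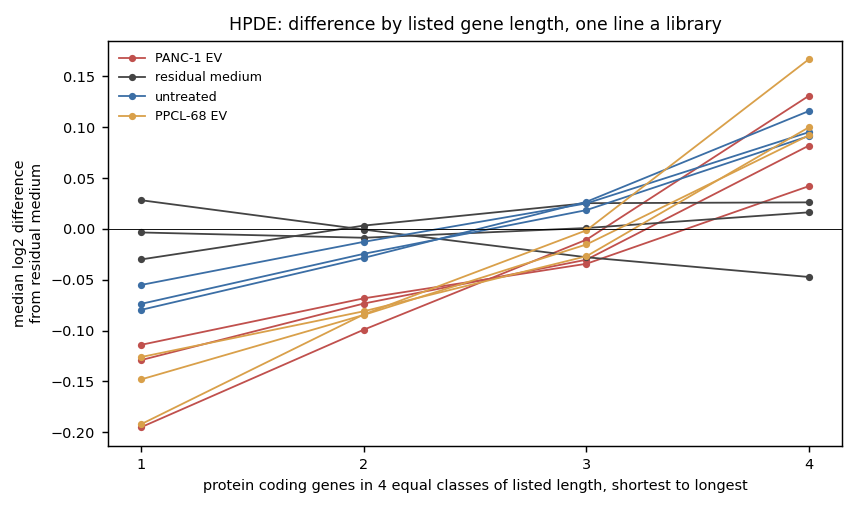
Median log2 difference from the mean of residual medium, over 4 equal classes of listed gene length among protein coding genes, with 1 line for each of the 12 HPDE libraries. The PANC-1 EV, PPCL-68 EV and untreated lines all run upward from the shortest to the longest genes, while the 3 residual medium lines lie near 0.

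The transcription factors of the stress response and the genes under them rose together. Of 8 stress transcription factors tested, 7 rose and 1 fell, with a median of 0.96, and of 14 effectors of ATF4 and CHOP, 13 rose and none fell, with a median of 1.33. DDIT3, at chr12:57910371-57914300 in hg19, encodes CHOP. It was at 6.03, 7.16 and 8.99 FPKM with residual medium and 50.5, 51.99 and 53.2 FPKM with PANC-1 EV. No library of one group came near the other, and the log2 difference was 2.67 (SE 0.091, adjusted p = 1.75e-11). Untreated cells, at 6.91, 7.43 and 7.98 FPKM, lay in the range of residual medium. ATF4, whose protein is made mainly through altered translation, moved far less at the RNA level, from 117, 120.4 and 115 to 161, 165 and 166 FPKM, a difference of 0.48. CEBPG, a partner of ATF4, rose by 1.36 and ATF3 by 1.198. ATF3 had a mean of 10.8 FPKM untreated, 18.5 FPKM with residual medium and 43.4 FPKM with PANC-1 EV. ATF5 was the member that fell, from a mean of 18.7 ± 0.0737 to 12.1 ± 0.273 FPKM (SD, n = 3).

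TRIB3, a pseudokinase that restrains AKT and ATF4, is one of the effectors. Its libraries read 114, 115 and 113 FPKM with residual medium and 403, 446 and 443 FPKM with PANC-1 EV, and the difference was 1.91 (SE 0.047, adjusted p = 1.78e-12). GDF15, a secreted stress signal, rose by 2.65, from 1.64, 1.16 and 1.196 to 12.6, 13.4 and 14.7 FPKM. TXNIP, an inhibitor of thioredoxin, went from 43.04, 56.1 and 53.3 to 260, 266 and 256 FPKM, with a difference of 2.35 (SE 0.076, adjusted p = 1.28e-11), and had a mean of 63.8 FPKM untreated. SESN2, an inhibitor of mTORC1 signalling, rose by 2.06, STC2, a secreted glycoprotein of calcium and phosphate balance, by 2.28, and CHAC1, which degrades glutathione, by 1.69. BBC3 (PUMA), a trigger of cell death, rose by 0.603. In all 7 of these genes the groups did not overlap, as at 66.9% of all tested genes. GDF15, TXNIP, SESN2 and STC2 were named by a rule that requires no overlap.

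Amino acid uptake and synthesis rose with them. Of 13 amino acid transporters tested, 11 rose and none fell, with a median of 0.89. SLC7A11, the cystine importer, was at 5.201, 6.04 and 6.001 FPKM with residual medium and 33.03, 26.2 and 29.8 FPKM with PANC-1 EV. The PANC-1 EV libraries also lay above the untreated ones at 9.97, 9.58 and 10.4 FPKM, although residual medium alone had lowered the gene (a difference of -0.71 from untreated). SLC38A2, which imports small neutral amino acids, followed the same order, with 158 FPKM untreated, 107 FPKM with residual medium and 396 FPKM with PANC-1 EV, and SLC7A5, the leucine importer and the most abundant of the list, rose by 1.02. Among 14 genes of serine, one-carbon, asparagine and proline synthesis, 11 rose, 1 fell and the median was 0.82. ASNS, asparagine synthetase, was at 24.1, 32.9 and 30.96 FPKM with residual medium and 117, 119.8 and 111 FPKM with PANC-1 EV, about 3.96-fold in the ratio of means. CBS rose by 1.38, CTH by 1.21, PSAT1 by 1.15 and PHGDH by 0.897. SHMT1, the cytosolic serine hydroxymethyltransferase, fell by 0.24 while its mitochondrial relative SHMT2 rose by 0.58.

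The enzymes that load transfer RNA divided by compartment. Of 20 cytosolic synthetases 12 rose and 4 fell, with a median of 0.497, while of 16 mitochondrial ones 1 rose and 11 fell, with a median of -0.204. AARS, the alanine enzyme, rose from 65.01, 72.9 and 74.4 to 172, 175 and 179.8 FPKM and GARS, the glycine enzyme, by 1.06. QARS, the glutamine enzyme, and VARS2, the mitochondrial valine enzyme, both fell by 0.53. In the promoters of 300 bases described below, the amino acid response element was searched as TGATGNAAT. It was in 0 of 13 promoters of ATF4-CHOP effectors, 0 of 8 of stress transcription factors and 0 of 11 of amino acid transporters. Synthesis genes held it in 1 of 10, cytosolic synthetases in 1 of 16 and mitochondrial ones in 0 of 13. The share over all promoters was 1.02%.

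The ER arm moved unevenly. Among 12 sensors and kinases of ER stress, 6 rose and 3 fell. ERN1 (IRE1), the sensor that splices XBP1, was at 2.45, 2.67 and 3.104 FPKM with residual medium and 16.1, 12.5 and 15.1 FPKM with PANC-1 EV. XBP1, its target, rose from 58.6, 56.8 and 55.4 to 128, 142 and 132 FPKM, a difference of 1.22 (SE 0.047, adjusted p = 5.7e-11). EIF2AK4 (GCN2), the sensor of uncharged transfer RNA, fell by 0.38. Of 20 ER chaperones and folding enzymes, in contrast, 5 rose, 7 fell and 8 did not pass the test, with a median of -0.056, close to that of all genes. DNAJB9, a co-chaperone that represses ERN1, rose by 1.102. HSPA5 (BiP), the main ER chaperone, read 343, 368 and 358 FPKM with residual medium and 459.6, 491 and 459 FPKM with PANC-1 EV, a difference of 0.397 (SE 0.055, adjusted p = 1.99e-05). SDF2L1, a cofactor of HSPA5, fell by 0.83 and CALR, the lectin chaperone calreticulin, by 0.34. Of 18 genes of ER-associated degradation and translocation, 5 rose and 4 fell. HERPUD1, which recruits the degradation machinery, rose by 0.95, and the translocon subunits SEC61B and SEC61G had differences of -0.49 and -0.54.

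ER chaperone promoters are known for the ER stress response element, to which ATF6 binds. The pattern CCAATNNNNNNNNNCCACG, searched on both strands of the 300 bases around each start in RefSeq (GRCh38.p14, 250 before and 50 after), was held by 6 of 18 chaperone promoters with an entry (33.3%) against 22 of 27305 promoters of that length (0.0806%). The 6 were HSPA5, HSP90B1, CALR, CANX, CRELD2 and ERO1LB. The same pattern was in 0 of 16 promoters of the ER degradation and translocation list. HSPA5 and CALR are shown because the pattern stands in both and the genes moved in opposite directions. Each sequence is the 250 bases before the start, with the match in capitals, and the CALR match lies on the opposite strand.

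HSPA5 (chr9:125241344-125241593, minus strand): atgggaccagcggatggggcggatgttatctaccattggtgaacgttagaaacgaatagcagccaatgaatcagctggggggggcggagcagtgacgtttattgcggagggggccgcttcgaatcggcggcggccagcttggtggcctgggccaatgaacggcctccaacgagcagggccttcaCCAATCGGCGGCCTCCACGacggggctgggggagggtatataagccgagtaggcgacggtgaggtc

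CALR (chr19:12938359-12938608, plus strand): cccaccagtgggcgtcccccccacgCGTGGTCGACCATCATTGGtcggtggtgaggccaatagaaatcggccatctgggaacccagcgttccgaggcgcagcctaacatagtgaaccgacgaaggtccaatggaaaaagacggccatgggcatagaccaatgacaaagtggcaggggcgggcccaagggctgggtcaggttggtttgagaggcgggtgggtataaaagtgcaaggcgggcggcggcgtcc

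The cytosolic chaperones fell. Of 37 heat shock chaperones and co-chaperones tested, 24 fell and 5 rose, with a median of -0.37, and 7 fell by at least 1. HSPA8 (HSC70), at chr11:122928197-122933938 in hg19, is the constitutive member of the family, which also uncoats clathrin vesicles. It read 1038, 1167 and 1129 FPKM with residual medium and 238, 231 and 245 FPKM with PANC-1 EV. Means fell 4.67-fold, with a log2 difference of -2.22 (SE 0.06, adjusted p = 2.41e-12), and the untreated libraries, at 1073, 1108 and 1106 FPKM, lay with residual medium. HSP90AA1, the stress-inducible HSP90, went from 1311, 1505 and 1461 to 582, 606 and 569.8 FPKM, a difference of -1.28 (SE 0.061, adjusted p = 5.04e-10). Its constitutive relative HSP90AB1 fell less, by 0.39. HSPA1A, the inducible HSP70, fell by 1.54, from 17.02 ± 0.908 to 5.23 ± 0.895 FPKM (SD, n = 3), a level that is uncertain because HSPA1B is a near-identical copy. The J-domain partners DNAJA1 and DNAJB1 fell by 1.20 and 1.06, and HSPH1, a nucleotide exchange factor, had a difference of -0.904. The 5 that rose included HSPA13, a microsomal relative, at 0.75, and DNAJB2 at 0.41. All 8 subunits of the chaperonin CCT, which folds actin and tubulin, fell, with a median of -0.24. In the mitochondrion 4 of 9 chaperones and proteases rose and 3 fell: HSPA9 (mortalin) rose by 0.56, LONP1 rose by 0.34, and HSPE1, which caps the HSPD1 chaperonin, fell by 0.79.

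The heat shock element, searched as GAANNTTCNNGAA on both strands, was in 5 of the 32 heat shock promoters with an entry (15.6%) and in 133 of all 27305 (0.487%). The 5 were HSPA8, HSPA6, DNAJA1, DNAJB6 and CHORDC1. Of these, HSPA8, DNAJA1 and DNAJB6 fell, while HSPA6 and CHORDC1, with differences of 0.040 and -0.013, did not pass the test. HSPA8 is shown because it had the largest fall and holds the pattern at 2 places, both in capitals.

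HSPA8 (chr11:123062137-123062386, minus strand): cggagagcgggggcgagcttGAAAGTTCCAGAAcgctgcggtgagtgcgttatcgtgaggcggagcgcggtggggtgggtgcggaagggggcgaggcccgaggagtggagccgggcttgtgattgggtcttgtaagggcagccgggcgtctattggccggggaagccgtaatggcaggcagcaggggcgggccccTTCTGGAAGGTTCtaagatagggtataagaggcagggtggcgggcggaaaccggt

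**Figure D3:**
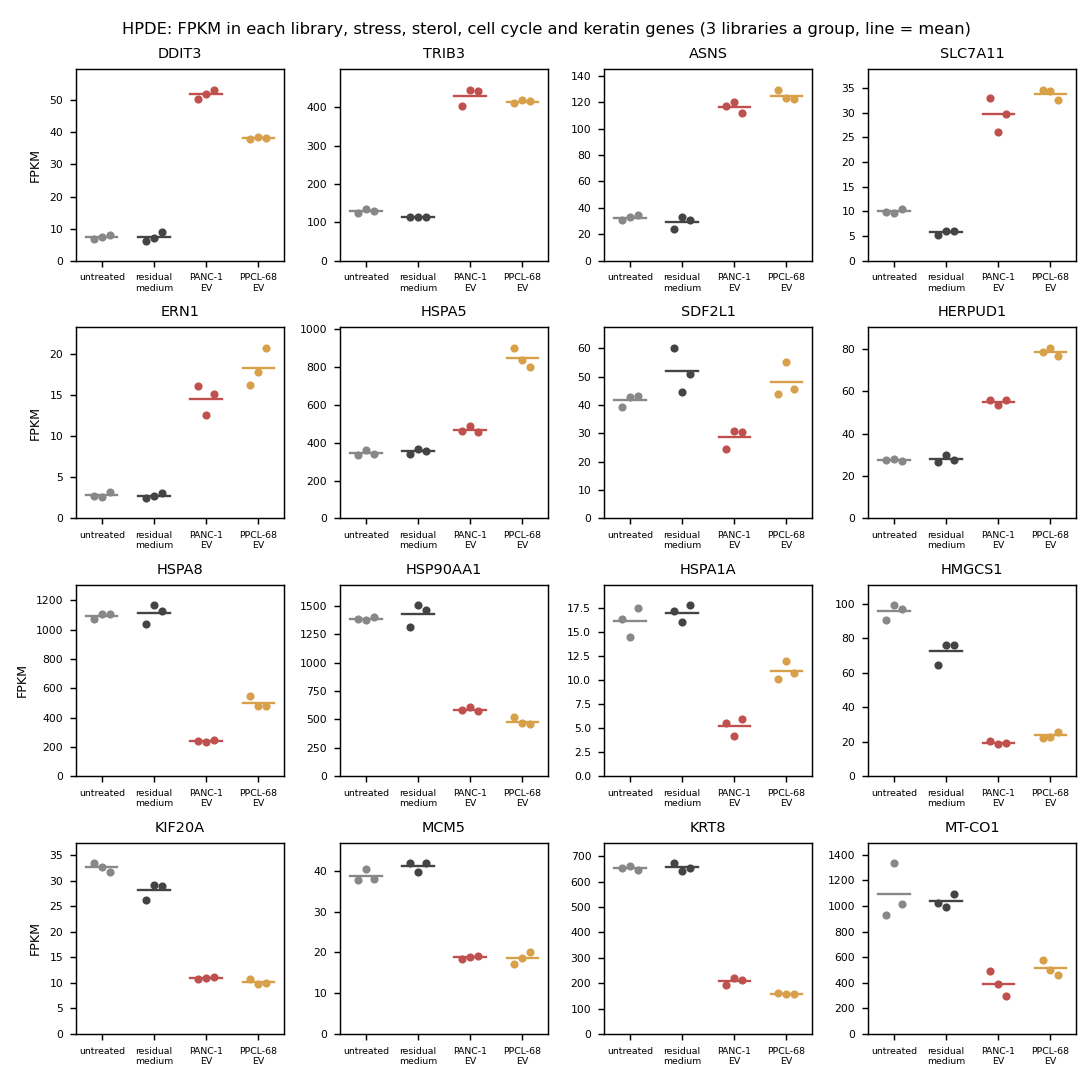
FPKM of 16 genes in each HPDE library, with 3 points and a line for the mean in each of the 4 treatment groups; axes start at 0. DDIT3, TRIB3, ASNS and SLC7A11 are high with both kinds of vesicles, whereas HSPA5 stands at 847 FPKM on average with PPCL-68 EV and 469.9 FPKM with PANC-1 EV, and HSPA8 is lowest with PANC-1 EV.

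Protein degradation moved with folding. Of 30 proteasome subunits 27 fell and 1, PSMD7, rose, a call lost without PANC-1 EV replicate 2 (adjusted p = 0.0593) or residual medium replicate 1 (adjusted p = 0.0527). The median was -0.38. Residual medium had raised 14 of the 30 over untreated cells, and against untreated cells 21 were lower and 2 higher with PANC-1 EV, at a median of -0.23. PSMB2, a catalytic-core subunit, fell by 0.83 and PSMD1, a scaffold of the regulatory particle, by 0.65. Of this list, 56.7% lies in the shortest length class, and its median was -0.254 after the median of each gene's own length class was taken off. Autophagy genes went the other way: 15 of 21 rose and 4 fell, with a median of 0.27. MAP1LC3B (LC3B), which coats the growing autophagosome, was at 34.8, 37.9 and 38.98 FPKM with residual medium and 150.3, 154 and 149.6 FPKM with PANC-1 EV. SQSTM1 (p62), the receptor that brings cargo to it, rose from 66.2, 63.9 and 70.9 to 172, 174 and 188 FPKM, a difference of 1.397 (SE 0.057, adjusted p = 8.87e-11). Lysosomal genes were divided, with 5 of 27 higher and 12 lower. Of 17 genes of vesicle biogenesis and tetraspanins, 8 fell and 1 rose. Residual medium had raised 7 of the 17, and against untreated cells 5 were higher and 5 lower with PANC-1 EV, at a median of -0.018. CD63, the tetraspanin of exosomes, was at 214, 194 and 204 FPKM with residual medium and 164, 168 and 174 FPKM with PANC-1 EV, a difference of -0.28 (SE 0.06, adjusted p = 0.00106), and its untreated mean was 179 FPKM. RAB27A, which docks vesicles for release, fell by 0.39.

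Sterol synthesis fell as a block. Of 24 genes of cholesterol synthesis and uptake, 20 fell and none rose, with a median of -0.72, and 5 fell by at least 1. HMGCS1, which makes HMG-CoA, was at 64.8, 76.3 and 76.1 FPKM with residual medium and 20.2, 18.9 and 19.2 FPKM with PANC-1 EV. This is a 3.73-fold lower mean, with a log2 difference of -1.84 (SE 0.066, adjusted p = 2.72e-11). Residual medium alone had lowered it from 90.4, 99.1 and 97.1 FPKM in untreated cells, and 14 of the 24 genes were lower with residual medium than untreated, at a median of -0.24. Between PANC-1 EV and residual medium, SQLE, squalene epoxidase, fell by 1.15 on the log2 scale. Fatty acid genes moved less against residual medium: 5 of 11 fell and 2 rose, with FASN at -0.74 and SCD at -0.67. Residual medium had already lowered 8 of the 11, at a median of -0.33. Against untreated cells 9 were lower and 2 higher with PANC-1 EV, at a median of -0.52. Among LXR targets, the sterol exporters ABCA1 and ABCG1 rose by 1.24 and 1.43, from means under 1 FPKM. The pattern TCACNCCAC of sterol response elements was in 1 of 17 promoters of the cholesterol list (5.88%), that of SREBF2, and in 1.15% of all promoters.

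Genes of proliferation fell almost without exception. Of 30 mitosis and spindle genes 29 fell and none rose, with a median of -0.59, and 29 of 30 genes of DNA replication and nucleotide supply fell, with a median of -0.51. KIF20A, a kinesin of cytokinesis, read 26.2, 29.3 and 28.97 FPKM with residual medium and 10.8, 10.96 and 11.2 FPKM with PANC-1 EV. PLK1, the mitotic kinase, fell by 1.04, from 41.4, 37.8 and 39.5 to 18.3, 19.9 and 17.9 FPKM. MCM5, a subunit of the replicative helicase, was at 41.9, 39.6 and 41.9 FPKM with residual medium and 18.4, 18.9 and 19.0 FPKM with PANC-1 EV, a difference of -1.09 (SE 0.053, adjusted p = 5.63e-10). MKI67, the proliferation antigen Ki-67, fell less, by 0.43, and was already lower with residual medium, at 27.4 FPKM, than in untreated cells, at 37.2 FPKM. In the G1 list of 18 genes, 10 fell and 6 rose: CDKN1A (p21), which stops cyclin-dependent kinases, rose by 0.64, after residual medium had raised it by 0.52, and MYC rose by 0.64, whereas the inhibitor CDKN2C fell by 0.95 and cyclin CCNE2 by 0.88. Of 20 p53 targets, 6 rose and 4 fell, with GADD45A at 1.28 and BAX at -0.400. LMNB1, a nuclear lamin lost when cells leave the cycle for good, fell by 1.03.

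Promoters of mitotic genes are known for the cell cycle homology region, through which the DREAM complex represses them outside division. Its pattern TTTGAA, on either strand, was in 17 of 24 mitosis promoters with an entry (70.8%), in 1 of 26 replication promoters (3.85%) and in 15.4% of all promoters. The CCAAT box was in 20 of the 24 (83.3%) and in 35.7% of all. PLK1 is shown as a member past 1 log2 that holds the first pattern, in capitals.

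PLK1 (chr16:23678639-23678888, plus strand): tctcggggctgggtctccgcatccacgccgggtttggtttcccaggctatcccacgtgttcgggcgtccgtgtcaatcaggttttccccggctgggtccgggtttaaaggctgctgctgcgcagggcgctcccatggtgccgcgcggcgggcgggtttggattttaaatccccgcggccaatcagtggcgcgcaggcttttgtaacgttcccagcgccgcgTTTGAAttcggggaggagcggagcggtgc

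The mitochondrial genome gave lower values throughout. All 12 tested protein genes of the mitochondrial genome fell, with a median of -0.93, and 5 fell by at least 1. MT-CO1, a core subunit of cytochrome oxidase, read 1019, 995 and 1089.7 FPKM with residual medium and 489, 389 and 297 FPKM with PANC-1 EV, and MT-ATP6, a subunit of ATP synthase, 691, 685 and 747 and 307, 237 and 177 FPKM. MT-CO2, the most abundant, fell by 0.86. The spread within the PANC-1 EV group was wide here. No PANC-1 EV library reached the lowest residual medium library in MT-CO1 or MT-ATP6, but both were named by a rule that requires no overlap. Nuclear subunits of the respiratory chain fell less, 18 of 27 lower and none higher, at a median of -0.22. Of 75 cytosolic ribosomal protein genes 58 fell and 1, RPL12, rose, at a median of -0.27; reads may be shared with the many pseudogene copies. The RPL12 call was lost when only the 6 libraries compared were fitted (adjusted p = 0.0636). These 3 lists are short genes: after the median of each gene's own length class was taken off, the medians were -0.784, -0.102 and -0.16. Ribosome biogenesis differed from the ribosome itself, with 13 of 27 genes higher and 7 lower. The nucleolar proteins NOP58 and DKC1 rose by 0.63 and 0.53, and RRS1 fell by 0.70.

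**Figure D4:**
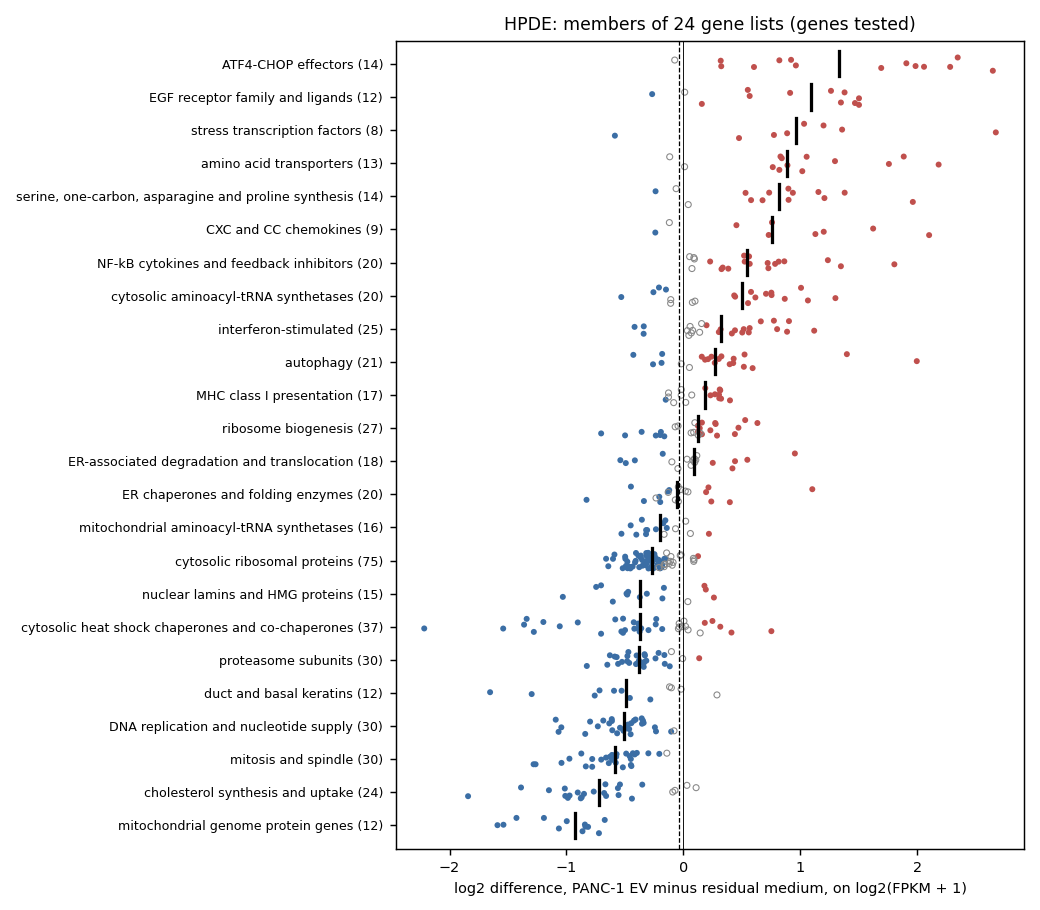
Log2 difference between PANC-1 EV and residual medium for every tested member of 24 gene lists, with the number tested in brackets; filled points passed the adjusted p threshold (red higher, blue lower), open points did not, the thick bar is the list's median and the dashed line the median of all genes. ATF4-CHOP effectors and EGF receptor genes lie furthest right, and cholesterol synthesis and the mitochondrial genome furthest left.

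Cytokine genes rose above a level that residual medium had already raised. Of 9 chemokines 7 rose and 1 fell, with a median of 0.76, and of 20 NF-kB cytokines and feedback inhibitors 16 rose and none fell, with a median of 0.54. Residual medium against untreated cells gave 8 of 9 and 17 of 20 higher in the same lists. IL8, the neutrophil chemokine, was at 31.2, 36.5 and 37.3 FPKM untreated, 175, 226 and 226 FPKM with residual medium and 357, 356 and 342 FPKM with PANC-1 EV. The difference between untreated cells and residual medium was 2.54, and that between residual medium and vesicles 0.76 (SE 0.095, adjusted p = 8.27e-06). CXCL2 showed the same stairs, with means of 54.2, 194 and 446 FPKM. CXCL10, the interferon-induced T cell chemokine, did not: it was at 22.1, 24.97 and 21.8 FPKM untreated, 21.1, 21.7 and 16.7 FPKM with residual medium and 81.01, 107 and 78.5 FPKM with PANC-1 EV, and the vesicle libraries stood apart from both. IL24, a cytokine of the IL-10 family, read 24.2, 20.4 and 20.4 FPKM with residual medium and 109, 105 and 114 FPKM with PANC-1 EV, a difference of 2.29 (SE 0.065, adjusted p = 3.58e-12), with an untreated mean of 9.89 FPKM. IL6 rose by 1.803, from a mean of 2.44 to 10.9 FPKM, and was at 0.464 FPKM untreated. IL1A, the epithelial alarmin and the most abundant of the list, rose by 1.24, after residual medium had raised it by 0.77. LCN2, an antimicrobial iron-scavenging protein, was at 10.7 FPKM untreated, 76.1 FPKM with residual medium and 233 FPKM with PANC-1 EV, while PI3 (elafin), which had risen with residual medium, had a difference of -0.41 with overlapping libraries. PTGS2, the inducible prostaglandin synthase, went from 22.0, 21.9 and 22.02 to 117, 101 and 111 FPKM.

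Interferon-stimulated genes rose in part. Of 25 tested, 15 rose and 3 fell, with a median of 0.32. Residual medium had raised 13 of the 25 over untreated cells and lowered 0. Against untreated cells 21 were higher and 2 lower with PANC-1 EV, at a median of 0.54. IFIT2, which blocks translation of foreign RNA, was at 82.2, 84.9 and 75.6 FPKM with residual medium and 170.2, 193 and 168 FPKM with PANC-1 EV. MX2, an antiviral GTPase, rose by 0.902. IFI6, the most abundant member, had a difference of 0.046 that did not pass the test, and BST2 (tetherin), IFI44 and OAS1 fell, by 0.34, 0.42 and 0.34. Against untreated cells the differences of BST2 and IFI44 were smaller, at -0.15 and -0.16. Of 17 genes of MHC class I presentation 9 rose and 1 fell, all by less than 0.41: B2M, the light chain, rose by 0.23, HLA-B rose by 0.32 and NLRC5, the class I transactivator, rose by 0.398. HLA genes are highly alike and their single values are uncertain.

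The EGF receptor and its ligands rose. Of 12 family genes 10 rose and 1, ERBB3, fell, with a median of 1.09. EGFR itself was at 60.3, 56.3 and 57.6 FPKM untreated, 37.2, 36.8 and 38.1 FPKM with residual medium and 97.6, 83.6 and 92.5 FPKM with PANC-1 EV, so it was lowered by residual medium and highest with vesicles. The ligand EREG was the most abundant, at 159, 179.7 and 169.7 FPKM with residual medium and 494, 476 and 473 FPKM with PANC-1 EV. HBEGF, a ligand shed from the membrane, rose by 1.35 and AREG by 1.38. ERRFI1, the feedback inhibitor of the receptor kinase, rose by 1.501. The outputs of ERK signalling did not move as one, with 5 of 14 higher and 3 lower: DUSP5 rose by 1.41 and PHLDA1 by 1.85, while DUSP4 and DUSP6, phosphatases of the same family, fell by 0.57 and 0.38. FOSL1 fell by 0.36, to 140.2 FPKM, which was near its untreated mean of 142 FPKM, and FOS fell by 0.63. FGF2 rose by 1.86 and VEGFA, the endothelial growth factor, by 1.52. Among secreted factors that fell were APLN (apelin), by 1.74, and FGFBP1, a carrier that frees stored FGFs. FGFBP1 was at 905, 838 and 775 FPKM untreated, 541, 445 and 404 FPKM with residual medium and 129.9, 143 and 152 FPKM with PANC-1 EV, 2 steps down.

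**Figure D5:**
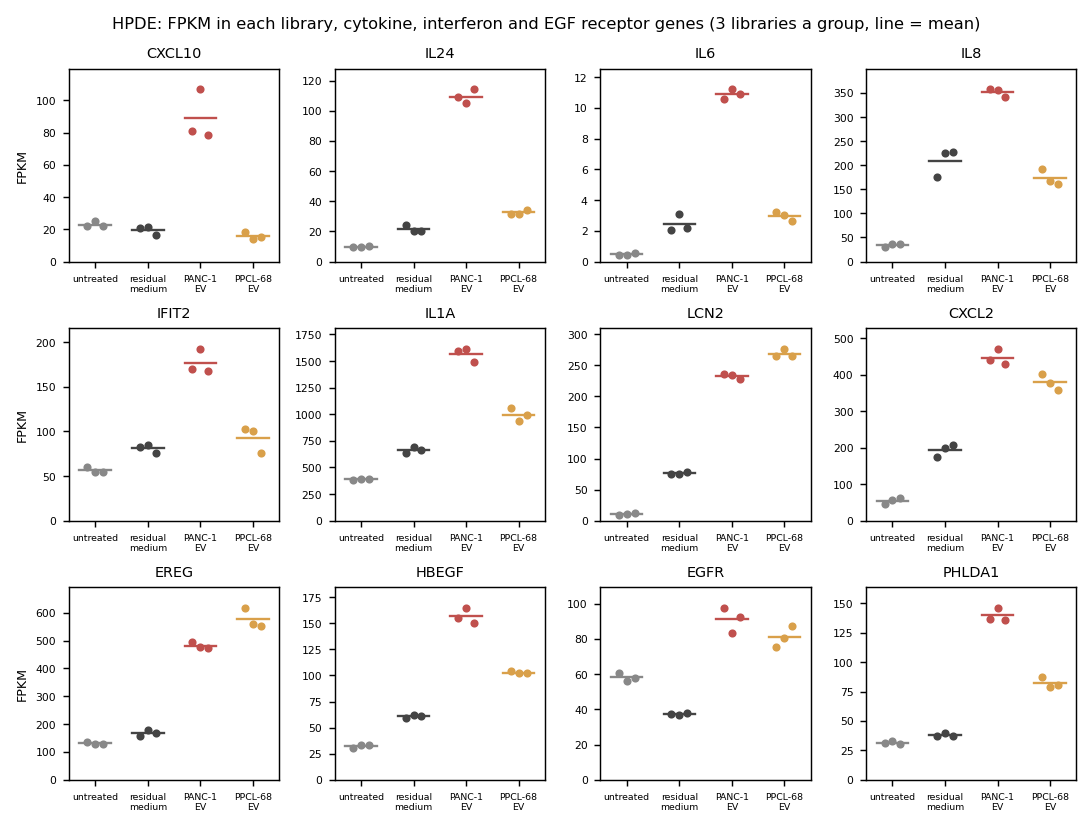
FPKM of 12 cytokine, interferon and EGF receptor genes in each HPDE library, with 3 points and a line for the mean in each of the 4 treatment groups; axes start at 0. CXCL10, IL24 and IL6 are highest in the PANC-1 EV libraries, whereas LCN2 and EREG are higher with PPCL-68 EV.

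Keratins of duct and basal epithelium, some of them also counted among the duct markers above, mostly fell. Of 12 keratins tested 8 fell and none rose, with a median of -0.49. Duct and basal keratins were not counted apart. KRT8 was at 674, 641 and 656 FPKM with residual medium and 192, 222 and 211 FPKM with PANC-1 EV, a difference of -1.65 (SE 0.05, adjusted p = 8.16e-12). KRT19, the ductal marker, fell from 1139.7, 974 and 1029.7 to 387, 477 and 415 FPKM, KRT7 fell by 0.76 and KRT18, the partner of KRT8, by 0.72. KRT5, the basal keratin, had a difference of -0.12 from residual medium that did not pass the test, at 937 and 861 FPKM, after residual medium had lowered it from 1804 FPKM untreated. TP63, the master factor of basal epithelium, rose by 0.99. Of 16 regulators of the epithelial state 6 rose and 5 fell. Here the tight junction genes parted: CLDN1 rose from 54.6, 58.3 and 51.3 to 149, 146 and 149 FPKM and CLDN4 fell by 1.13. CLDN4 had a mean of 3.48 FPKM untreated, 7.95 FPKM with residual medium and 3.11 FPKM with PANC-1 EV, and the difference between vesicles and untreated cells, -0.12, did not pass the test. SNAI2 (Slug) rose by 0.52 over residual medium but, at 60.9 FPKM, was not above the untreated mean of 67.1 FPKM. Of 21 collagen and matrix genes 8 rose and 5 fell, led by LAMB3, a laminin of epithelial basement membrane, at 1.02. Of 14 matrix metalloproteinases and inhibitors 5 rose and 4 fell, with a median of -0.059. Residual medium had raised 10 of the 14 over untreated cells and lowered 1. MMP10, a matrix protease, rose by 1.73 from a mean of 1.18 FPKM, and SERPINB2, an inhibitor of plasminogen activation, by 1.09. SPRR2D, a cornified envelope protein, rose by 2.33, from 17.5, 20.6 and 20.4 to 104, 99.9 and 102 FPKM, after residual medium had raised it by 2.33 from an untreated mean of 3.13 FPKM. Its near-identical relative SPRR2A fell by 0.49, so the division of reads between them is uncertain.

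The remaining lists moved in both directions. Of 27 glycolysis and hypoxia genes 15 fell and 8 rose: PKM and PGAM1 fell by 0.73 and 0.74, and HIF1A rose by 0.87. NRF2 antioxidant genes had 8 of 20 higher and 8 lower; the ferritin chains FTH1 and FTL rose by 0.78 and 0.35, GCLM fell by 0.56, and HMOX1, heme oxygenase, was at 4.47, 5.06 and 4.83 FPKM with residual medium and 3.98, 4.47 and 4.84 FPKM with PANC-1 EV, which overlap. SLC30A1, the zinc exporter, rose by 1.303, and MT2A, the most abundant metallothionein, had a difference of -0.33 with overlapping libraries. Of 17 BCL2 family and death receptor genes 8 rose and 4 fell, among them PMAIP1 (NOXA), which rose by 0.58. Immediate-early factors had 8 of 16 higher and 3 lower, YAP-TEAD targets 7 of 14 higher and 4 lower, and nuclear lamins and HMG proteins 3 of 15 higher and 11 lower. Of 3 UNC5 receptors and netrins tested, NTN4 rose by 0.54 and the others did not pass the test.

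Several of the largest changes lay outside every list. LURAP1L, an adaptor-like protein gene at chr9:12775020-12822130 in hg19, rose most of all named genes, from 1.52, 1.77 and 1.84 to 24.6, 24.8 and 26.2 FPKM, a 14.7-fold higher mean and a difference of 3.27 (SE 0.093, adjusted p = 3.75e-12). VNN3, of the pantetheinase family, was at 0.744, 1.13 and 1.07 FPKM with residual medium and 11.1, 11.2 and 10.9 FPKM with PANC-1 EV, and had a mean of 0.151 FPKM untreated. PPP1R3C, which targets protein phosphatase to glycogen, rose by 2.24. PTRF (cavin-1), a coat protein of caveolae, fell from 118, 102 and 106 to 34.1, 33.1 and 35.01 FPKM, and FAM111B, a protease of proliferating cells, fell by 1.65. KRTAP2-3 fell by 2.05, after residual medium had raised it by 1.34, a value that is uncertain because this family holds near-identical copies.

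PANC-1 EV were then set against PPCL-68 EV at the same number of vesicles and the same time, in a direct test between those 2 groups of 3 libraries. It called 6123 genes (50.1%), 3084 of them higher with PANC-1 EV (25.2%) and 3039 lower (24.9%). Only 81 genes differed by at least 1 log2 (0.663%). The test shares the PANC-1 EV libraries with the main comparison. ER genes differed in 1 direction: 18 of 20 chaperones and folding enzymes were lower with PANC-1 EV and none higher, at a median of -0.602, and 17 of 18 genes of ER degradation and translocation were lower. HSPA5 was at 459.6, 491 and 459 FPKM with PANC-1 EV and 903, 837 and 799 FPKM with PPCL-68 EV, a difference of -0.85 (SE 0.055, adjusted p = 2.78e-08). DNAJC3, a co-chaperone of HSPA5, was at 11.1 against 27.4 FPKM, and with residual medium at 11.3 FPKM. SQSTM1 and MAP1LC3B were also lower with PANC-1 EV, with differences of -0.95 and -0.75. HMOX1, at 14.4, 12.4 and 10.5 FPKM with PPCL-68 EV, had a difference of -1.299.

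Interferon-stimulated genes ran the opposite way between the sources. Of the 25, 20 were higher with PANC-1 EV than with PPCL-68 EV and none lower, at a median of 0.46. CXCL10 was at 18.4, 14.05 and 15.3 FPKM with PPCL-68 EV, near its level with residual medium, and the difference between sources was 2.401 (SE 0.12, adjusted p = 3.93e-09). MX2 differed by 1.35, IL24 by 1.72, IL6 by 1.59 and IL1B by 1.21. IL8 was higher with PANC-1 EV by 1.02 and stood at 174 FPKM with PPCL-68 EV, below the 209 FPKM of residual medium. The fall in replication genes was smaller with PANC-1 EV: 28 of 30 were higher than with PPCL-68 EV, at a median of 0.55, with RRM2, the ribonucleotide reductase subunit, at 72.9, 70.5 and 67.8 against 29.4, 27.4 and 27.6 FPKM and 103 FPKM with residual medium. Keratins were higher than with PPCL-68 EV in 11 of 12 genes, KRT5 by 1.401. HSPA8 was the reverse case, lower with PANC-1 EV than with PPCL-68 EV at 545, 480 and 478 FPKM, a difference of -1.07 (SE 0.06, adjusted p = 8.13e-09), although HSP90AA1 was slightly higher, by 0.29. Stress genes differed between sources in both directions: of 8 stress transcription factors 3 were higher and 3 lower with PANC-1 EV, and of 14 ATF4-CHOP effectors 3 were higher and 5 lower, at a median of -0.048. DDIT3 was at a mean of 51.9 FPKM with PANC-1 EV against 38.2 FPKM, a difference of 0.43 (SE 0.091, adjusted p = 0.00136). TRIB3 had a difference of 0.051 (SE 0.047, adjusted p = 0.395) and ASNS of -0.11 (SE 0.084, adjusted p = 0.32). A p that misses the threshold does not show that TRIB3 and ASNS respond alike to the sources.

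Finally, the effect of PANC-1 EV over residual medium was compared between HPDE and HPNE cells by an interaction term over all 24 libraries, for 10483 genes expressed in both lines. It called 1908 genes (18.2%), 787 with a higher (7.51%) and 1121 with a lower (10.7%) effect in HPDE. Of the genes named as the largest changes of HPDE, the first 5 rises and first 5 falls tested in both lines were compared, and for 6 of these 10 the difference between lines did not pass the threshold. DDIT3 rose in both, with effects of 2.67 and 2.15, GDF15 in both, with 2.65 and 2.46, and HMGCS1 fell in both, with -1.84 and -1.41. The remaining 3 were TXNIP, IL24 and FAM111B. LURAP1L rose more and HSPA8 fell more in HPDE. The 10 genes were chosen by their effect in the same HPDE libraries, which favours a larger effect in HPDE. The HPNE residual medium libraries spread widely in some of these genes, with IL24 at 18.0 ± 18.9 FPKM and DDIT3 at 6.21 ± 3.54 FPKM (SD, n = 3). Without the HPNE residual medium replicate 3, the interaction called 3514 genes in place of 1908.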

How the data were processed

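RNA-seq of 24 cell line cultures was deposited by the authors as 1 table of FPKM values per library; per the labels' protocols, libraries were made with a kit that does not keep strand, so overlapping antisense genes cannot be separated. The submitters' processing notes name CASAVA, STAR, HTSeq, DESeq2 and the hg19 build without versions or roles; how FPKM was scaled is not given in the sources used here. Multiplying FPKM by listed length gave whole reads for 100% of values within 0.02 reads, which gave the depth. Every precision statement rests on 3 libraries per group.

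The value log2(FPKM + 1) was fitted with limma 3.58.1 in R 4.3.3. It covered 12223 genes with a mean of at least 1 FPKM over the 12 HPDE libraries. The fit had 4 groups, 8 residual degrees of freedom and trended moderation, with Benjamini-Hochberg adjustment over all genes and a threshold of 0.05. Adjusted p-values come from this fit unless the interaction between lines or an alternative fit is named, and all are two-sided. Means are given with the SD over libraries and differences with the SE. The difference between lines was an interaction over 24 libraries (16 degrees of freedom). The fits were tested on simulated data. No block for the replicate number was used in the main fit. Correlations between same-numbered PANC-1 EV and residual medium libraries cannot settle whether the numbers pair the samples.

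Genes named are the 15 largest rises and falls among protein coding genes (at least 5 FPKM in a group, no overlap), the 2 largest rises and falls and the most abundant member of each list, and fixed anchor genes; other list members are named as examples and were chosen after their values were seen. The members, lists and anchors were chosen with earlier results of these data known. Alternatives were median-ratio size factors, another pseudocount, no filter, only the 6 libraries compared, a replicate block, limma voom on the recovered reads, and leaving out each library; removing a trend on listed length was chosen after seeing the data. Promoter sequences came from RefSeq. Some genes that the rule names are not reported here.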

Additional observations from a re-analysis of the deposited data

Results flagged for a closer look

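Among the 5 largest rises and 5 largest falls of HPDE by the rule for named genes that were tested in both lines, the effect of PANC-1 EV over residual medium differed between HPDE and HPNE cells at 4 genes by the interaction term of limma (16 residual degrees of freedom, adjusted over 10483 genes). The same term called 1908 genes in all. These genes of the largest rises and falls were chosen by their effect in the same HPDE libraries, which favours a larger effect in HPDE. The values below are the HPDE effect minus the HPNE effect in log2 units. LURAP1L differed by 1.48 (SE 0.285, adjusted p = 0.0013): it rose by 3.27 in HPDE and by 1.79 in HPNE. HSPA8 differed by -1.005 (SE 0.215, adjusted p = 0.00301), with effects of -2.22 and -1.21 in the respective lines. KRT8 differed by -1.99 (SE 0.436, adjusted p = 0.00358), but HPNE cells hold little of it, at 1.48 ± 1.25 FPKM with residual medium and 2.07 ± 1.34 FPKM with PANC-1 EV (SD, n = 3). C15orf52 differed by -1.69 (SE 0.191, adjusted p = 9.84e-06); in HPNE it was at 13.7 ± 1.63 FPKM with residual medium and 14.3 ± 3.14 FPKM with PANC-1 EV.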

How the results depend on the processing

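The counts of genes called for PANC-1 EV against residual medium, against untreated cells and against PPCL-68 EV stayed within 1.5 times under median-ratio size factors, another pseudocount, no filter on low values, the libraries compared alone, limma voom and the length correction added after seeing the data. Counts past 1 log2 grew with a pseudocount of 0.1 and with voom, to 503 and 553 in place of 293 for PANC-1 EV against residual medium, 594 and 647 against untreated, 90 and 96 for residual medium against untreated, 166 and 191 against PPCL-68 EV, and 288 and 304 for the line difference, which gave 250 with no filter. Residual medium against untreated gave 1527 calls and 704 lower with no filter, and 740 lower with the length trend removed. The cause was not tested.

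Leaving out 1 library gave 7116 to 7373 calls for PANC-1 EV against residual medium, and for residual medium against untreated 1423 to 2110 calls, 809 to 1088 higher and 614 to 1022 lower, lowest without HPDE untreated replicate 1. The line difference gave 1390 to 3514 calls, 565 to 1984 higher, 825 to 1530 lower and 144 to 394 past 1 log2, highest without HPNE residual medium replicate 3.

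With the replicate number as a block, PANC-1 EV against residual medium gave 7525 calls, against untreated 7171, residual medium against untreated 2028, PANC-1 EV against PPCL-68 EV 5789 and the line difference 1902. Deviations of same-numbered PANC-1 EV and residual medium libraries correlated at -0.246, -0.0369 and -0.0613. With 3 libraries per group, these values cannot settle whether the numbers pair the samples.

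Of 231 genes tested 219 passed the threshold; none reversed and 14 lost the call under an alternative, among them KARS, PI3, MT2A and IL1B.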

Other observations

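Among the 11009 protein coding genes tested, 3148 were higher and 3999 lower with PANC-1 EV than with residual medium. Of 246 long intergenic genes 59 were higher and 63 lower. Of 274 antisense genes 69 were higher and 61 lower, although reads of these cannot be told from their sense partners without strand. Of 414 pseudogenes 93 were higher and 96 lower.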
